A study of Homo sapiens with 4 samples.

Results

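The 39 genes described here act in the repair of DNA double-strand breaks and of crosslinks between DNA strands, and are grouped by role. The rule that chose them used their names, but the names were listed with earlier results of these data known. They fall into 7 genes of break sensing and signalling, 15 of homologous recombination, 10 of the Fanconi pathway and 7 of end joining. Their transcripts were measured by RNA-seq in 2 libraries of PANC-1 and 2 of PZT-2. PANC-1 is an established human cell line from a pancreatic ductal adenocarcinoma, used here as the untransduced wild type. PZT-2 is a single clone of PANC-1 that stably carries lentiviral short hairpin RNAs, driven by the U6 promoter, against the isoforms of the histone variant H2A.Z. Because PZT-2 is 1 clone and PANC-1 carried no hairpin vector, the knockdown, the clone's own history and the vector cannot be told apart. The question was which transcripts differ when H2A.Z is depleted. Of the 39 genes, 38 had estimated counts and all 38 passed the filter on low counts, among 15101 genes tested of 15221 named. LIG4, the ligase of end joining, had none in the values used and is not analysed here.

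A double-strand break is first bound by the MRE11-RAD50-NBN complex, which recruits the kinase ATM, while the kinase ATR responds to single-stranded DNA at resected ends and stalled forks. Both kinases signal through CHEK2 and CHEK1. Homologous recombination then resects the ends and, with the help of BRCA1, PALB2 and BRCA2, uses a sister chromatid as template. End joining instead holds the ends with the Ku heterodimer and the kinase DNA-PKcs and ligates them. The Fanconi pathway ubiquitinates FANCD2 and FANCI at crosslinks. H2A.Z itself is a histone of nucleosomes that flank many active start sites, and it has been tied to chromatin at breaks.

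Recovered library totals were 12861486 to 15717578 counts. The targeted genes had the labelled direction: H2AFZ read 6389 and 6034 normalized counts in PANC-1 and 2212 and 2259 in PZT-2. H2AFV read 3343 and 3452 against 2590 and 2719 and was called lower (log2 fold change -0.36 ± 0.06, adjusted p = 0.00573, edgeR). The call of H2AFV was lost with its most abundant transcript alone (-0.26, adjusted p = 0.0687, edgeR) and without PZT-2 replicate 1 (-0.32). The epithelial keratins KRT8, KRT18 and KRT19 were abundant in all 4 libraries, at 12384 or more normalized counts, and the other 3 epithelial markers were low: KRT7 read 104 to 143, EPCAM 82.1 to 105, and CDH1 116 and 148 in PANC-1 and 0 and 18.8 in PZT-2. For all 6, PZT-2 was lower than PANC-1 with no overlap of libraries, an order also found for 4974 of all 15101 genes tested. KRT8, KRT18, KRT19 and CDH1 were called lower (log2 fold changes of -1.17, -0.81 and -0.73 for the keratins). KRT7 and EPCAM were not called (-0.27 ± 0.17 and -0.17 ± 0.17). The gap for EPCAM was narrow, with 102.4 and 104.8 normalized counts in PANC-1 and 101.7 and 82.1 in PZT-2. The part of these epithelial differences in the repair genes was not tested. Of 14 leukocyte, fibroblast and endothelial markers, 9 had no counts, among them PTPRC, DCN and CDH5, and of the other 5 the macrophage gene CD68 (1682 and 1578 against 1708 and 1623) and the collagen gene COL1A1 (494 and 531 against 170.1 and 135) exceeded 16 normalized counts. Since the values are relative to all mRNA of a library, fewer transcripts per cell and fewer cells with them cannot be told apart.

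The genes are shown first by the sequence just before their start. The table of RefSeq promoters (GRCh38.p14, 250 bases before to 50 after a start) held 50 promoters of 34 of the 39 genes. For 8 of the 10 genes that differed between the cell lines, the last 120 bases before the first listed start are printed 5′ to 3′ on the gene's strand. The differences between the cell lines were computed without them. Capitals mark the letters CCGGAAG, the core bound by ETS factors, and CCAAT, the box bound by NF-Y, on either strand.
RAD50 (chr5:132556857-132556976, plus strand): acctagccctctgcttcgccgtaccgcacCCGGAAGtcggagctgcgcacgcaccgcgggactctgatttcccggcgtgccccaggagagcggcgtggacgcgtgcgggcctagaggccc
ATM (chr11:108222947-108223066, plus strand): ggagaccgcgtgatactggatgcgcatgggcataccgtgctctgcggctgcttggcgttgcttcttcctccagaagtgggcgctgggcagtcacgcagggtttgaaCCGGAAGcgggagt
CHEK2 (chr22:28741821-28741940, minus strand): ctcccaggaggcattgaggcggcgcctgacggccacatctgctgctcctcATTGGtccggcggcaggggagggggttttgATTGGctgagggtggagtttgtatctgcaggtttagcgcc
RBBP8 (chr18:22933208-22933327, plus strand): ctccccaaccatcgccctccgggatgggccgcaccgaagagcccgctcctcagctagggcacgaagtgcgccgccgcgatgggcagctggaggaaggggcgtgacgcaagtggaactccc
PALB2 (chr16:23641311-23641430, minus strand): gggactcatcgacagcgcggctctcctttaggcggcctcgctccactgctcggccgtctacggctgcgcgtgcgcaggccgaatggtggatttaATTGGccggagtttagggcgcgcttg
FANCD2 (chr3:10026317-10026436, plus strand): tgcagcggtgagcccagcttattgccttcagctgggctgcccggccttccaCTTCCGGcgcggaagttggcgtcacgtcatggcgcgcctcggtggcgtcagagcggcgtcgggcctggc
TP53BP1 (chr15:43510641-43510760, minus strand): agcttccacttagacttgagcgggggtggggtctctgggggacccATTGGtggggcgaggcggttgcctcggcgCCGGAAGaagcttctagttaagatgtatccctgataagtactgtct
XRCC6 (chr22:41621175-41621294, plus strand): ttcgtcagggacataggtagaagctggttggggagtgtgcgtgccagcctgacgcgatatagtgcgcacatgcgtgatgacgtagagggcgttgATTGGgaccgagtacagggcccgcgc

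These stretches were 57.5% to 71.7% G or C. The ETS letters stood in RAD50, ATM, FANCD2 and TP53BP1, which include genes lower and genes higher in PZT-2. Over whole promoters, CCGGAAG stood on either strand in 16 of the 50 promoters of the repair genes (12 genes) and in 10.3% of all 35116 promoters. CCAAT stood in 24 of the 50 and in 34.6% of all, and the GC box GGGCGG in 35 of the 50 and in 45.0% of all. The TATA box TATAAA was in 2 of the 50, those of DCLRE1C and RAD52, against 11.5% of all. Of the other 5 letter strings searched, the E2F strings TTTCCCGC (FANCC, FANCD2, XRCC2) and TTTGGCGC (XRCC6) stood in 1.63% and 0.652% of all promoters. The strings of cell cycle genes (CHR) TTTGAA (ATM, BRIP1, FANCC, MDC1) and TTCGAA (no repair gene) stood in 15.2% and 1.45%, and the CRE string TGACGTCA (EXO1, LIG4, RAD51C, XRCC2) in 1.85%. Several genes have more than 1 listed promoter, so the 50 are not independent, and a match of letters is not a bound site. The 35116 promoters were not restricted to genes tested here, so these shares are not a comparison with other expressed genes.

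Transcripts of the sensor RAD50 and NBN, of the kinase ATM and of the resection factor RBBP8 fell, with log2 fold changes from -0.94 to -0.65, and those of TP53BP1, FANCD2 and CHEK2 rose, with 0.36 to 0.44. In the quasi-likelihood test of edgeR, with p-values adjusted by Benjamini-Hochberg over all genes and a threshold of 0.05, 10 of the 38 genes were called. That is 26.3%, against 28.4% of all genes tested, so the share called is near the background and is not a result about these genes. Called lower were 7 genes (18.4%, against 13.7% of all genes), and called higher were 3 genes (7.89%, against 14.7%). Both PZT-2 libraries lay outside both PANC-1 libraries for 22 of the 38 (57.9%, against 66.3% of all genes). They lay below in 17 and above in 5, and over all 15101 genes below in 4974 and above in 5032. The median log2 fold change was -0.13, and that of all genes 0.00.

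**Figure D1:**
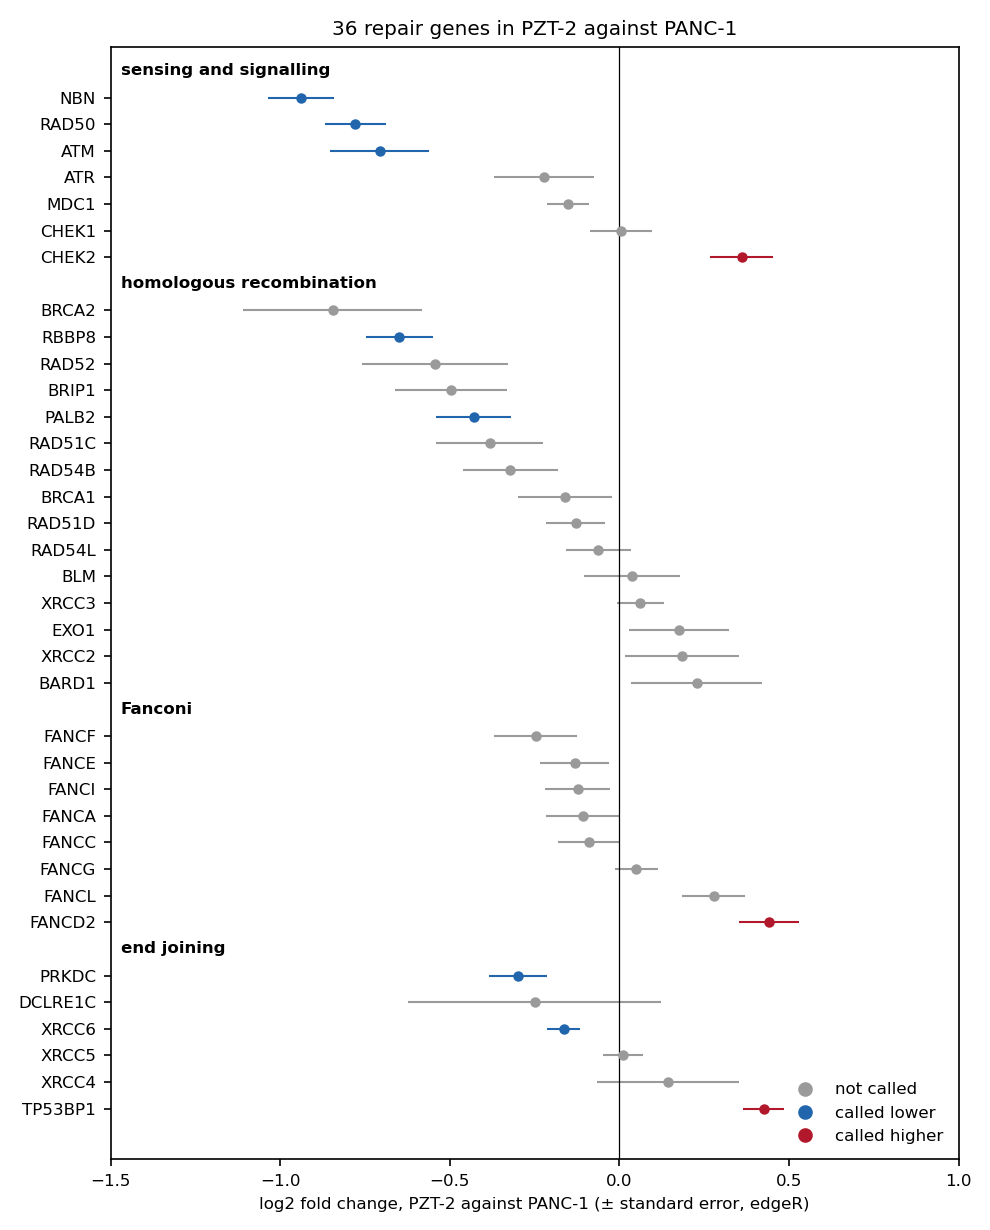
Log2 fold change of 36 repair genes (without FANCM and FANCB, which have a library at 0) in PZT-2 against PANC-1 (horizontal axis), with the standard error of the edgeR fit as bars, ordered within the 4 groups and coloured by the call at an adjusted p of 0.05. The 7 genes called lower lie between -0.94 (NBN) and -0.16 (XRCC6) and the 3 called higher between 0.36 and 0.44.

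Among the 7 genes of sensing and signalling, 3 were called lower and 1 higher (57.1%, against 28.4% of all genes tested). No result is read from the share called in groups this small. The median log2 fold change of the group was -0.22. RAD50, the coiled-coil ATPase that tethers DNA ends, had 836 and 962 normalized counts in PANC-1 and 522 and 527 in PZT-2. Its log2 fold change was -0.78 ± 0.09 (SE, n = 2 libraries per cell line; adjusted p = 0.00188, edgeR). NBN, which binds phosphorylated chromatin and recruits ATM, had 548 and 587 normalized counts in PANC-1 and 314 and 279 in PZT-2. The PZT-2 libraries lay far below the PANC-1 libraries for both genes. For NBN the log2 fold change was -0.94 ± 0.10 (adjusted p = 0.00132, edgeR), the lowest among the called genes of the 38. MRE11, the nuclease of the same complex, had 294 and 371 normalized counts in PANC-1 and 367 and 312 in PZT-2, so its libraries overlapped. Its log2 fold change was 0.03 ± 0.14 (adjusted p = 0.921, edgeR), and the difference between MRE11 and its partners was not tested.

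ATM, the kinase that the complex activates, had 722 and 785 normalized counts in PANC-1 and 535 and 389.6 in PZT-2. The groups did not overlap, but the PZT-2 libraries differed from each other more than the PANC-1 libraries did. The log2 fold change was -0.71 ± 0.15 (adjusted p = 0.0142, edgeR), and the threshold was missed in the limma-trend fits on TPM (0.0645 and 0.0685). ATR had 404 and 498 normalized counts in PANC-1 and 432 and 344 in PZT-2, which overlapped (log2 fold change -0.22 ± 0.15, adjusted p = 0.313, edgeR). Its partner ATRIP and its activator TOPBP1 were not called, with log2 fold changes of 0.17 ± 0.11 and -0.04 ± 0.12.

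CHEK2, the effector kinase downstream of ATM, was in the opposite direction to ATM. It had 311 and 294 normalized counts in PANC-1 and 375 and 399.5 in PZT-2, so both PZT-2 libraries were higher. The log2 fold change was 0.36 ± 0.09 (adjusted p = 0.0304, edgeR), and leaving out replicate 2 of PANC-1 or either library of PZT-2 ended the call (adjusted p = 0.0742 and, for PZT-2, 0.0910 and 0.172). So did DESeq2 (0.153), the replicate block (0.0551) and the most abundant transcript alone (0.177). CHEK1, the effector of ATR, had 626 and 689.5 normalized counts in PANC-1 and 622 and 699 in PZT-2, which overlapped (log2 fold change 0.00 ± 0.09). MDC1, the adaptor that reads phosphorylated H2A.X, had 2129 and 2073 against 1952 and 1832 and was not called (log2 fold change -0.15 ± 0.06, adjusted p = 0.116, edgeR). H2AFX, the gene of H2A.X itself, was likewise not called, at -0.18 ± 0.06 (adjusted p = 0.0626, edgeR).

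**Figure D2:**
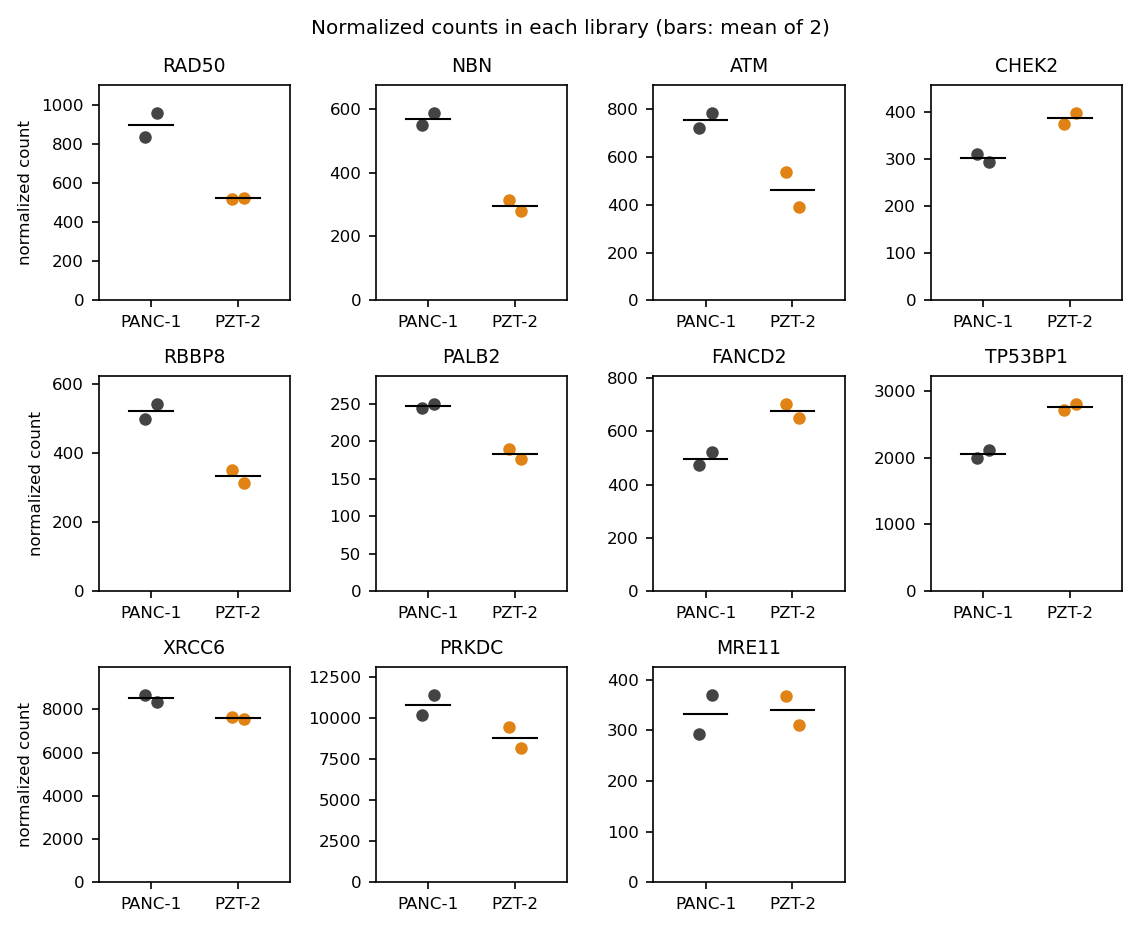
Normalized counts (vertical axes, each from 0) in each PANC-1 and PZT-2 library for the 10 called genes and for MRE11, with a bar at the mean of the 2 libraries of a cell line. The points of the cell lines do not overlap for the 10 called genes, from NBN (548 and 587 against 314 and 279) to XRCC6 (8686 and 8363 against 7665 and 7545), and overlap for MRE11.

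Of the 15 genes of homologous recombination, 2 were called lower and none higher (13.3%, against 28.4% of all genes), and 13 were not called. The median log2 fold change was -0.16. RBBP8, which encodes the resection factor CtIP, had 498 and 542 normalized counts in PANC-1 and 351 and 313 in PZT-2. Both PZT-2 libraries were lower, with a log2 fold change of -0.65 ± 0.10 (adjusted p = 0.00482, edgeR). The long-range nuclease EXO1 and the helicase BLM were not called, with overlapping libraries and log2 fold changes of 0.18 ± 0.15 and 0.04 ± 0.14.

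PALB2, which bridges BRCA1 and BRCA2, had 244 and 250.3 normalized counts in PANC-1 and 190.2 and 177 in PZT-2. Its log2 fold change was -0.43 ± 0.11 (adjusted p = 0.0291, edgeR), and leaving out replicate 2 of PANC-1 or either library of PZT-2 ended the call (adjusted p = 0.0568 and, for PZT-2, 0.0927 and 0.169). So did DESeq2 (0.163), the limma-trend fits on TPM (0.0929 and 0.0899), the replicate block (0.0535) and the most abundant transcript alone (0.0914). BRCA2, a mediator of strand exchange, had 90.0 and 135 normalized counts in PANC-1 and 73.5 and 52.4 in PZT-2. The PZT-2 libraries were the lower ones, but the test was not passed (log2 fold change -0.85 ± 0.26, adjusted p = 0.0562, edgeR), and it was passed without PANC-1 replicate 1 (adjusted p = 0.00526). BRIP1, the helicase that binds BRCA1, showed the same order of libraries, with 141.8 and 175 against 121 and 105 normalized counts (log2 fold change -0.50 ± 0.16, adjusted p = 0.0663, edgeR), and was called without PANC-1 replicate 1. BRCA1 and its partner BARD1 had overlapping libraries, with log2 fold changes of -0.16 ± 0.14 and 0.23 ± 0.19. BARD1 was called higher without PANC-1 replicate 1, at 0.51.

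RAD51C, RAD51D, XRCC2 and XRCC3 encode related accessory proteins of strand exchange. RAD51C had 144 and 138 normalized counts in PANC-1 and 96.6 and 119.7 in PZT-2, and RAD51D 407 and 395 against 357 and 376, so that for both the PZT-2 libraries were the lower ones without a call (log2 fold changes -0.38 ± 0.16 and -0.13 ± 0.09). XRCC2 overlapped, and XRCC3 was slightly higher in both PZT-2 libraries (679 and 697 against 707 and 729) without a call. RAD52, an annealing protein, had 141.8 and 137 against 75.5 and 116 (log2 fold change -0.54 ± 0.21, adjusted p = 0.108, edgeR) and was called without PZT-2 replicate 2. The motor proteins RAD54L and RAD54B had log2 fold changes of -0.06 ± 0.10 and -0.32 ± 0.14 and were not called.

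Among the 10 Fanconi genes, none was called lower and 1 higher (10.0%, against 28.4% of all genes), with a median log2 fold change of -0.10. FANCD2, the pathway's ubiquitinated substrate, had 471 and 522 normalized counts in PANC-1 and 703 and 649.7 in PZT-2. Both PZT-2 libraries were higher, with a log2 fold change of 0.44 ± 0.09 (adjusted p = 0.0127, edgeR), and the call was lost without PZT-2 replicate 1 (adjusted p = 0.0785) and with the most abundant transcript alone (0.695). FANCI, its partner in the ubiquitinated pair, had 1399.8 and 1678 normalized counts in PANC-1 and 1461.5 and 1369.6 in PZT-2. These overlapped (log2 fold change -0.12 ± 0.10, adjusted p = 0.393, edgeR), although FANCI was called lower without PANC-1 replicate 1, at -0.25. FANCL, the ubiquitin ligase, had 266 and 272 against 321 and 331 normalized counts. Both PZT-2 libraries were higher, but the test was not passed (log2 fold change 0.28 ± 0.09, adjusted p = 0.0685, edgeR). FANCL was called higher in the limma-trend fits on TPM (adjusted p = 0.0325 and 0.0321). UBE2T, the conjugating enzyme that works with FANCL, and USP1, the protease that removes the mark, were not called (0.02 ± 0.08 and -0.14 ± 0.08).

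The core complex brings FANCL to chromatin. Its members FANCA, FANCC, FANCE, FANCF and FANCG were not called and had log2 fold changes from -0.25 (FANCF) to 0.05 (FANCG). FANCM, the translocase that anchors the complex, had 39.4 and 48.8 normalized counts in PANC-1 and 0 and 23.7 in PZT-2. It was called lower without PZT-2 replicate 2, which leaves the PZT-2 library at 0. FANCB had 28.1 and 0 against 21.1 and 18.8, and was called higher without PANC-1 replicate 1, which leaves the PANC-1 library at 0. With a library at 0 in each, the fitted fold changes of FANCM and FANCB depend on the prior count, and nothing is read from their size. FAAP100, a core complex subunit outside the 39 genes, had 3375 and 3645 normalized counts in PANC-1 and 1629 and 1589 in PZT-2. It fell by 1.13 ± 0.06 on the log2 scale (adjusted p = 0.000214, edgeR).

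Of the 6 end joining genes with counts, 2 were called lower, 1 higher and 3 not called, with a median log2 fold change of -0.08. Of all genes tested, 28.4% were called, and here too no result is read from a share among so few genes. TP53BP1, the chromatin protein that restrains resection, had 1989 and 2115.5 normalized counts in PANC-1 and 2709 and 2804.5 in PZT-2. Both PZT-2 libraries were higher by a wide margin, with a log2 fold change of 0.42 ± 0.06 (adjusted p = 0.00389, edgeR). The Ku subunits were the most abundant of the 38 genes per length, at a mean of 511 (XRCC6, Ku70) and 284 (XRCC5, Ku80) TPM in PANC-1, a unit that takes transcript length and library depth into account. XRCC6 had 8686 and 8363 normalized counts in PANC-1 and 7665 and 7545 in PZT-2. Its log2 fold change was small, -0.16 ± 0.05 (adjusted p = 0.0444, edgeR), and leaving out replicate 1 of PANC-1 or either library of PZT-2 ended the call (adjusted p = 0.0540 and, for PZT-2, 0.190 and 0.255). So did the limma-trend fits on TPM (0.0938 and 0.0954), the replicate block (0.0728) and the most abundant transcript alone (0.800). XRCC5 had 7157 and 7816 against 7634 and 7453, which overlapped (log2 fold change 0.01 ± 0.06).

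PRKDC, the catalytic kinase DNA-PKcs, had 10204 and 11415 normalized counts in PANC-1 and 9432 and 8159 in PZT-2. Both PZT-2 libraries were lower (log2 fold change -0.30 ± 0.09, adjusted p = 0.0429, edgeR), and the call was lost without PZT-2 replicate 2 (adjusted p = 0.232). It also missed the threshold in the limma-trend fits on TPM (0.148 and 0.155), with the replicate block (0.0717), with symbols of the table alone (0.0542) and on the values as deposited (0.0548). The nuclease Artemis (DCLRE1C) and the ligation scaffold XRCC4 lay between 42.5 and 101.9 normalized counts, overlapped and were not called. NHEJ1, which encodes the XLF partner of XRCC4, had 303 and 314 normalized counts in PANC-1 and 202 and 208 in PZT-2, and fell by 0.59 ± 0.10 on the log2 scale (adjusted p = 0.00699, edgeR). Leaving out either library of PZT-2 moved it just past the threshold (adjusted p = 0.0511 and 0.0506).

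A list of other repair genes held 71 genes with counts, of which 12 were called lower and 8 higher (28.2%, against 28.4% of all genes), with a median log2 fold change of -0.06. The lowest called were FAAP100, REV3L, the catalytic subunit of a translesion polymerase, and NHEJ1. REV3L had 375 and 478 normalized counts in PANC-1 and 267 and 214 in PZT-2. Its log2 fold change was -0.83 ± 0.16 (adjusted p = 0.0107, edgeR), and the call was lost without PZT-2 replicate 2 (0.0674) and in limma-trend on TPM (0.0548 and 0.0590). The highest were RNF168, the ubiquitin ligase that marks chromatin for TP53BP1, WDR48, a cofactor of USP1, and TIPIN, a fork protection protein. RNF168 had 219 and 236 normalized counts in PANC-1 and 405 and 389 in PZT-2, which gave a log2 fold change of 0.80 ± 0.10 (adjusted p = 0.00217, edgeR). WDR48 had 241 and 281 against 423 and 459 (0.75 ± 0.11, adjusted p = 0.00427), and TIPIN 155 and 206 against 259.7 and 291 (0.60 ± 0.16, adjusted p = 0.0320). TIPIN lost its call without either PZT-2 library (adjusted p = 0.0748 and 0.165), in DESeq2 (0.0605) and with the most abundant transcript alone (0.1025).

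Many genes of recombination and of the Fanconi pathway are transcribed most in S and G2 phase. In the same libraries, 24 of 53 G2/M genes were called lower and 2 higher (49.1% called, median log2 fold change -0.28). Of 34 S phase genes, 3 were called lower and 5 higher (23.5% called, median 0.06). Of all genes tested, 28.4% were called. The part of the cell cycle in the repair genes was not tested.

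The values were also set beside those of the genes around them. On chromosome 3 the median log2 fold change over 836 tested genes was 0.43, and 403 of them were called higher (of all genes tested, 14.7% were). FANCD2, RNF168 and WDR48 lie on this chromosome, and the 10 tested genes nearest FANCD2 had a median of 0.59, with 7 called higher. ATR lies on it too, and stood at -0.22 where its 10 nearest genes had a median of 0.43 and 5 were called higher. On chromosome 15 the median over 530 genes was 0.24. TP53BP1, at 0.42, lies there among neighbours with a median of 0.34, and FANCI, at -0.12, among neighbours with a median of 0.36. Of the 7 genes called lower, 6 stood below the median of their neighbours, XRCC6 being the exception. The 7 were picked for low values and their neighbours were not, so nothing is read from this count. NBN was at -0.94 where its 10 nearest genes had a median of -0.19, RAD50 at -0.78 against -0.17, ATM at -0.71 against -0.02, and PRKDC at -0.30 against 0.14. RBBP8, at -0.65, had neighbours with a median of -0.26, of which 5 were called lower. The part of position in these differences was not tested.

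**Figure D3:**
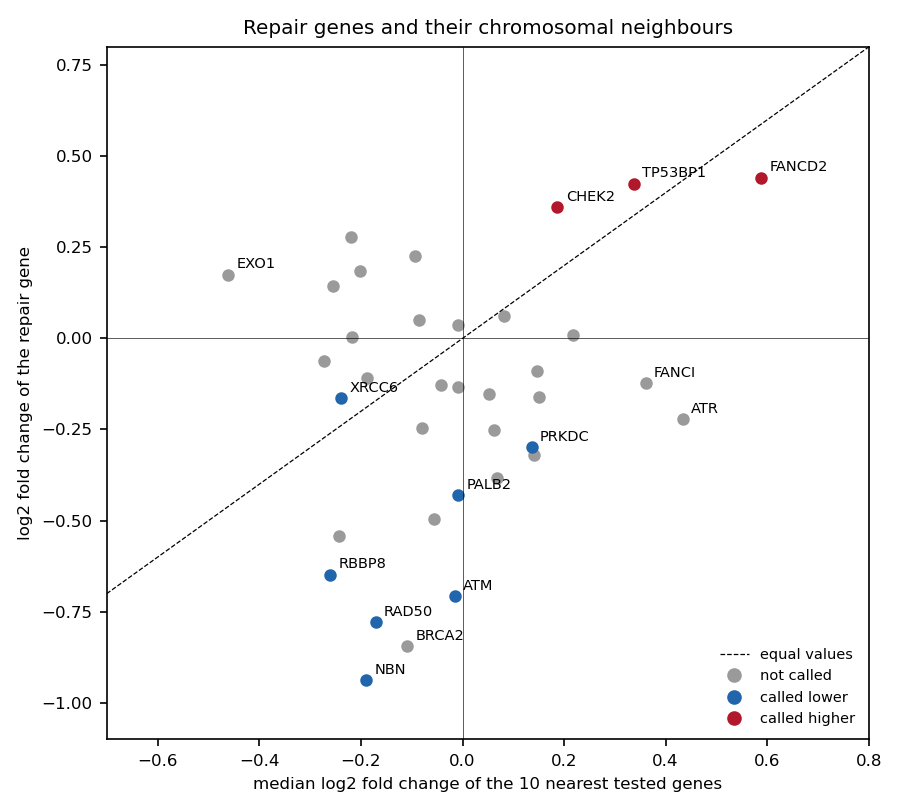
Log2 fold change of 36 of the repair genes (vertical axis, without FANCM and FANCB) against the median log2 fold change of the 10 tested genes nearest to each on its chromosome (horizontal axis), coloured by the call. FANCD2 (0.44 against 0.59), TP53BP1 (0.42 against 0.34) and CHEK2 (0.36 against 0.19) lie near the dashed line of equal values, whereas NBN, RAD50 and ATM lie far below it.

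Several of the printed start regions lie between genes that start back to back on opposite strands. Among the 39 genes, 10 have a tested partner whose start lies within 1000 bases behind their own, in 11 pairs, and 2 of the partners were called. Of all genes tested, 28.4% were called, so this count is not a result about the pairs. NPAT, a coactivator of histone genes that starts back to back with ATM, had 176 and 167 normalized counts in PANC-1 and 119 and 95.9 in PZT-2. Its log2 fold change was -0.67 ± 0.15 (adjusted p = 0.0196, edgeR), beside -0.71 for ATM, and the call was lost without PZT-2 replicate 2 (0.121), in DESeq2 (0.0722), in the limma-trend fits on TPM (0.0645 and 0.0764) and with the most abundant transcript alone (0.107). MAP1A, a microtubule protein gene beside TP53BP1, had 104 and 94.9 against 204 and 148 (log2 fold change 0.83 ± 0.19, adjusted p = 0.0200, edgeR), beside 0.42 for TP53BP1, and the call was lost without PZT-2 replicate 1 (0.104), in the limma-trend fits on TPM (0.0598 and 0.0709) and with the most abundant transcript alone (0.0753). Both libraries of PZT-2 lay on the same side as for the repair gene in each of these pairs. HSCB, beside CHEK2, was not called (0.34 ± 0.18, adjusted p = 0.213, edgeR). DCTN5, beside PALB2, and DESI1, beside XRCC6, were at 0.05 ± 0.06 and 0.00 ± 0.08 where the repair genes were called lower. The remaining pairs held no call. Partners with the other sign than the repair gene were SNHG31 beside BARD1 (-0.55 ± 0.50) and MOSPD2 beside FANCB (-0.69 ± 0.27). So were NBR1 and NBR2 beside BRCA1 (0.11 ± 0.09 and 0.08 ± 0.20) and TMEM167A beside XRCC4 (-0.03 ± 0.07). ZFYVE21 beside XRCC3 had the same sign (0.16 ± 0.09).

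The 38 genes were estimated from 88 transcripts, of which 85 were tested. None was called by edgeR, 13 had an unadjusted p below 0.05, and DESeq2 called 10, while over all transcripts edgeR called 45 of 30403. Transcript values are therefore described without a call. In BRCA1, NM_007294 held 50.4% and 50.7% of the gene's TPM in PANC-1 and 39% and 35.0% in PZT-2. NM_007298 held 29.5% and 27.4% against 41.1% and 41.9%, and NM_007300 was listed at 0 in both PANC-1 libraries and at 26.1 and 42.4 normalized counts in PZT-2. The shares thus separated the cell lines while the gene's sum did not. How many transcripts of other genes separate in this way was not counted, so nothing is read from single cases. In FANCA, NM_000135 held 63.4% and 62.7% in PANC-1 and 80.3% and 77.5% in PZT-2, and NM_001286167 had 149.6 and 148 normalized counts in PANC-1 and 0 and 51.3 in PZT-2, without passing the edgeR test.

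In other genes a single library differed. For ATM, NM_000051 had 547 and 582 normalized counts in PANC-1 and 382 and 388 in PZT-2, close within each cell line. NM_001351834 had 175 and 207 against 153 and 0, so the spread of the ATM sum in PZT-2 came from this transcript. For FANCD2, NM_001018115 held 78.9% in both PANC-1 libraries, 81.4% in PZT-2 replicate 1 and 50.6% in PZT-2 replicate 2, where NM_001319984 held 39.6%. In XRCC6, NM_001288976 had 3516 and 2848 normalized counts in PANC-1 and 2282.5 and 2481 in PZT-2, while NM_001469 had 5105 and 5496 against 5349 and 5008. The lower sum of XRCC6 thus came with the first of these. Transcripts of a gene share most of their bases, so how reads were split between them is an estimate.

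**Figure D4:**
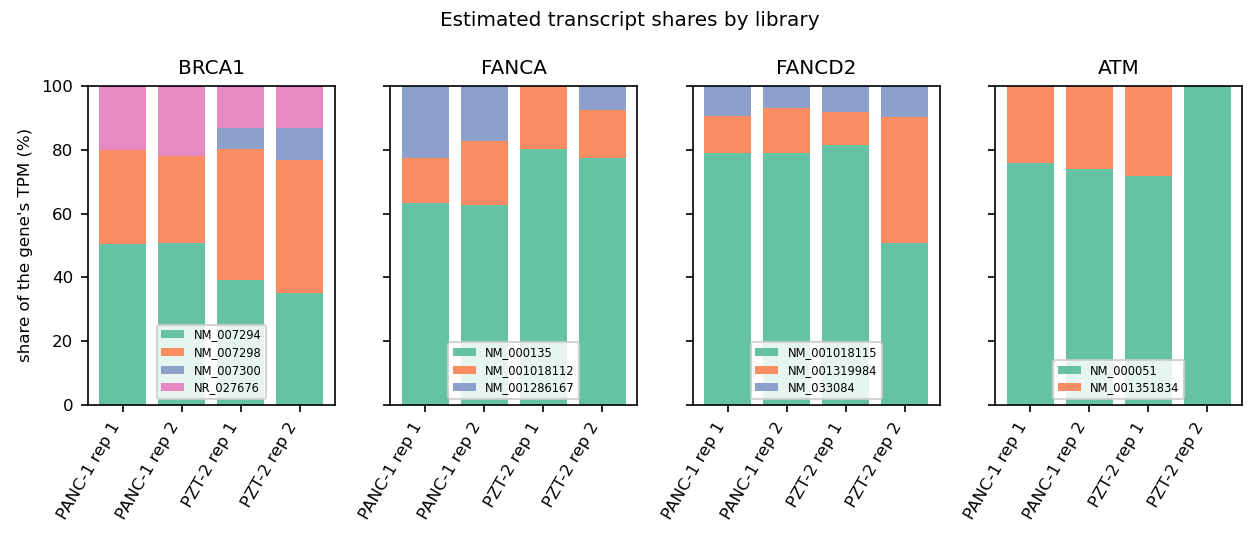
Share of each gene's TPM (vertical axis, percent) held by its RefSeq transcripts in the 4 libraries, for BRCA1, FANCA, FANCD2 and ATM, with 1 colour per transcript. The shares separate the cell lines in BRCA1 (NM_007294 at 50.4% and 50.7% against 39% and 35.0%) and FANCA, and a single library, PZT-2 replicate 2, stands apart in FANCD2 and ATM.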

How the data were processed

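RNA-seq values of 2 PANC-1 and 2 PZT-2 libraries (total RNA, stranded mRNA kit, paired reads) were used. The authors trimmed reads with Trim Galore 0.4.1, estimated RefSeq transcripts with kallisto 0.43.0 and exported the deposited estimated counts with sleuth 0.29.0. The labels name hg19. The deposited effective lengths, in bases, gave TPM here. The authors' own comparison columns (effects, p-values and q-values of sleuth) were not used. The values showed 1 factor per library (0.935 to 1.16), which was undone: 41.0% to 42.2% of low values of single-transcript genes were then whole to within 0.01, against 0.915% to 2.39% as deposited. Recovered counts were rounded and summed per gene, by the table's symbol or, for 3925 transcripts, by accession in RefSeq (GRCh38.p14). The other 103 unnamed transcripts held 0.0466% of counts.

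Genes that reached 5 counts in 2 or more libraries were tested with edgeR 4.0.16 (TMM, quasi-likelihood test, R 4.3.3), adjusted by Benjamini-Hochberg over all genes, which was tested on simulated data first. Normalized counts are scaled to the mean library. Intervals are standard errors of the edgeR fit (log2 fold change over the square root of its F statistic). Their spread is moderated over all genes, so they are not the spread between the 2 libraries of a gene. The study calls the 2 libraries per cell line biological replicates, though the labels do not say that they were separate cultures. If they were not, p-values measure technical spread. An exact permutation test of 2 against 2 cannot go below p = 0.333, so none was made. Low counts limit precision. The members and lists were chosen with earlier results of these data known. Named were all 39 genes, direct partners fixed by name (a result for 1 of them is not reported here), the 3 lowest and the 3 highest called other repair genes (by log2 fold change, mean normalized count of 100 or more), and the targeted genes. Neighbours are the 5 tested genes on each side. Alternatives used DESeq2 1.42.0 and limma 3.58.1. Of the 73 names of other repair genes listed, 2 had no counts. These were APITD1 and STRA13, older names of CENPS and CENPX, which were listed too and had counts.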

Additional observations from a re-analysis of the deposited data

How the results depend on the processing

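NBN, RAD50 and RBBP8 were called lower and TP53BP1 higher in each of the 16 alternatives other than the 2-fold minimum, under which 0 genes were called lower and 0 higher. ATM missed the threshold only in limma-trend on log2(TPM + 1) and log2(TPM + 0.1) (adjusted p = 0.0645 and 0.0685), where 3 genes were called lower in each. The replicate numbers do not pair the samples (correlation of deviations -0.0206): with the replicate block, 4 genes were called lower and 2 higher. Over all 15101 genes, the replicate block called 3697, against 4292 in the main fit. Calls over all genes also fell without either PZT-2 library and rose without either PANC-1 library. The number of calls lost or gained is therefore not a result about the repair genes. With each library left out, 5 to 9 genes were called lower and 1 to 5 higher, no transcript of the 38 genes was called (0), and the lone library is assumed to vary like the other pair. Only TP53BP1 was called higher without PZT-2 replicate 1. DESeq2 called 10 of 85 transcripts (4400 of 30403 over all). A minimum of 10 counts in all 4 libraries called 3 of 61 (1209 of 20642 over all). With the most abundant transcript alone, XRCC6 stood at -0.03 and FANCD2 at 0.19.

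Some genes that were not called changed sign, and the cause was not tested. With a library left out, log2 fold changes ran from -0.0815 to 0.0865 in CHEK1, -0.14 to 0.24 in BLM, -0.33 to 0.0279 in BRCA1, -0.0397 to 0.51 in BARD1, -0.0202 to 0.43 in XRCC2, -0.16 to 0.0332 in RAD54L, -0.25 to 0.0402 in FANCA, -0.50 to 7.38 in FANCB (the upper value is fitted against a PANC-1 library at 0 and is no measure of size), -0.25 to 0.00847 in FANCI, -0.0561 to 0.0684 in XRCC5, -0.81 to 0.16 in DCLRE1C and -0.10 to 0.35 in XRCC4. The most abundant transcript alone gave -0.15 for CHEK1, -0.10 for EXO1, -0.19 for XRCC3, 0.0914 for RAD54L, 0.00553 for RAD54B and 0.22 for FANCA. On TPM, BRCA1 stood at 0.0149 (log2(TPM + 1)) and 0.0179 (log2(TPM + 0.1)).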
